A study of Mus musculus with 17 samples.

Results

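Liver macrophages sorted on the Kupffer cell markers F4/80 (high) and TIM4 were compared between mice on a high fat, high sucrose diet (HFD KC, 5 libraries) and mice on standard chow (STD KC, 3 libraries). These 8 of the 17 libraries of the series were taken by the source given for each sample, and all genes of the deposited count table were used. All mice were of the Cx3Cr1-GFP/WT line on C57BL/6, in which a green fluorescent reporter stands in place of 1 copy of the chemokine receptor gene Cx3cr1, and the diets lasted 16 weeks. The high fat diet is given as Research Diets catalogue number D12492. The other 9 libraries, all from mice on the high fat diet, are 4 of liver macrophages positive for the Cx3cr1 reporter (Cx3cr1pos macs-HFD) and 5 of adipose tissue macrophages (ATMs-HFD). The sort label differs inside HFD KC: hfd1 and hfd2 are labelled frac_neg, as are std1, std2 and std3, whereas hf1, hf2 and hf3 are labelled CD68. The label CD68 coincides with the name prefix hf, so label and prefix cannot be told apart. The labels give neither age nor sex, and do not say whether each library came from its own animal, so that p-values measure the spread between these libraries. In all 8 Kupffer cell libraries the Y-chromosome genes Ddx3y, Eif2s3y, Kdm5d and Uty summed to 223 to 288 CPM. Xist, an RNA of female cells, had at most 0.0317 CPM, so these libraries read as male on both diets.

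Kupffer cells are the resident macrophages of the liver sinusoids, where they take up bacteria, aged red cells, lipoproteins and dying cells from the blood. In the healthy liver they maintain themselves with little input from blood monocytes, and TIM4, a receptor for phosphatidylserine on dying cells, marks those that have long been resident. In fatty liver some are lost and monocyte-derived macrophages settle beside them, many in a lipid-handling state with high TREM2, CD9 and GPNMB.

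Depth was close between the diets, with total counts of 32.9 to 37.8 M in HFD KC and 31.7 to 35.1 M in STD KC, at which 3 counts correspond to 0.0768 to 0.0954 CPM (a count scaled to the library total, after TMM scaling). Mitochondrial genes took 0.374 to 0.640% of the counts in HFD KC and 0.362 to 0.645% in STD KC. Per-library values are given in the order hfd1, hfd2, hf1, hf2, hf3 for HFD KC and std1, std2, std3 for STD KC. The TIM4 gene Timd4 had 1656, 402, 1382, 1046 and 1179 CPM in HFD KC, against 1233, 1439.7 and 1565 CPM in STD KC. It was lowest in hfd2, and hf2 and hf3 were also below all STD KC libraries. The library hfd2 was also the library whose profile lay nearest to a Cx3cr1pos macs-HFD library (r = 0.973 across genes, with hfd2 of that sort) and not to one of its own group. Clec4f, a lectin found on Kupffer cells, had 16888, 13687, 20230.3, 22498 and 14826 CPM in HFD KC, against 21068, 23097 and 23819 CPM in STD KC, and Cd68 had 2105 to 2926 CPM in HFD KC, against 2471 to 3154 CPM in STD KC. None of the 5 sort markers or the 8 pan-macrophage markers passed the test.

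The question the design puts is which genes differ in Kupffer cells after the diet. With the quasi-likelihood test of edgeR and Benjamini-Hochberg adjustment over 15285 genes, 519 genes passed the threshold of 0.05, which is 3.4% of those tested. Of these, 347 were higher in HFD KC (2.27% of genes tested) and 172 lower (1.13%). The 5 HFD KC and 3 STD KC libraries did not overlap for 495 of the 519, against 14% of all genes tested. Of the 519, 497 code for protein and 331 differed at least 2-fold. The count fell to 291 without std1, 125 without std2 and 161 without std3, so the calls rest in part on having all 3 STD KC libraries.

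A set of 105 genes, 0.687% of those tested, is called steady here. A steady gene passed the threshold in the fit of all libraries, in each of the 8 fits without 1 Kupffer cell library, with only the frac_neg HFD KC libraries and with only the CD68 ones, each time in the same direction. There were 73 steady rises (0.478% of genes tested) and 32 steady falls (0.209%), and 102 of the 105 code for protein. With only hfd1 and hfd2, which carry the same label as STD KC, 505 of 15996 genes passed (3.16%). With only hf1, hf2 and hf3, 372 of 15162 passed (2.45%), and 205 genes passed both ways. Set against each other inside HFD KC, CD68 against frac_neg libraries, 0 of 16148 genes passed (0%), 1389 had an unadjusted p under 0.05 and DESeq2 called 28. Without hf3, 205 genes passed between the labels, 5 without hfd1 and 2 without hfd2, so the count of 0 does not show that the labels are alike. Of the 105 steady genes, 17 had an unadjusted p under 0.05 between the labels, a larger share than the 1389 of 16148 among all genes tested.

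**Figure D1:**
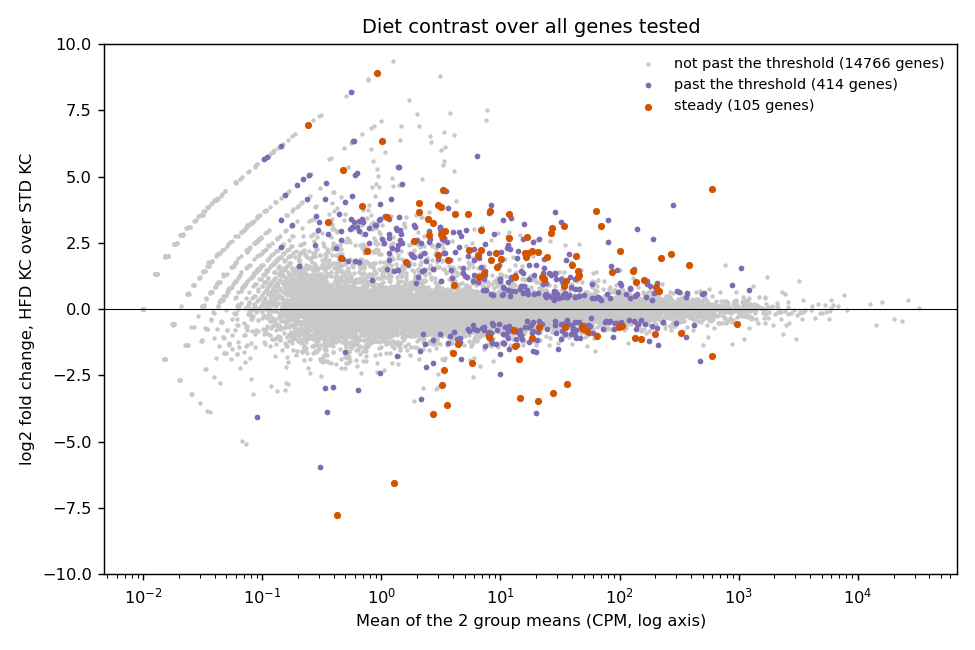
Log2 fold change of HFD KC (n = 5) over STD KC (n = 3) against the mean of the 2 group means in CPM (log axis), 1 point per gene tested. Steady genes (105, orange) lie on both sides of 0 and at all levels, with 73 of them higher in HFD KC, and the median of all genes is 0.02.

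Among the steady rises were genes of actin and of proteins that bind membranes, a grouping made after their values were seen. Capg, which encodes a protein that caps the ends of actin filaments, had 603, 581, 514, 568 and 651 CPM in HFD KC, against 165, 181 and 213 CPM in STD KC. Its lowest HFD KC library stood above its highest STD KC library by more than the spread inside either group (log2 fold change with SE 1.65 ± 0.12, adjusted p = 2.3e-06). Anxa2, a calcium-dependent membrane-binding annexin that works at endosomes and the cell cortex, had 349.5, 474, 326, 309 and 321 CPM in HFD KC, against 100.4, 103 and 75.5 CPM in STD KC (1.94 ± 0.17, adjusted p = 2.32e-05). The annexin Anxa4 had 198, 278, 165, 232 and 221 CPM in HFD KC, against 107, 90.03 and 109 CPM in STD KC (1.10 ± 0.15, adjusted p = 0.00108). The groups did not overlap for either annexin, and hfd2 was the highest library for both. Myo1e, a single-headed myosin of phagocytic cups and podosomes, had 79.2, 107, 50.8, 47.1 and 64.1 CPM in HFD KC, against 20.1, 17.2 and 14.7 CPM in STD KC (2.01 ± 0.34, adjusted p = 0.00322). Sh3pxd2b, an adaptor of podosomes known as TKS4, had 41.3, 76.4, 44.7, 31.7 and 41.7 CPM in HFD KC, against 10.5, 3.28 and 5.55 CPM in STD KC (2.87 ± 0.35, adjusted p = 0.00036). Both were above all STD KC libraries in each HFD KC library, which for Sh3pxd2b was a condition of its choice.

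Of 26 tested genes on the list of actin, migration and guidance, 8 were higher and 0 lower, against 2.27% and 1.13% of all genes, and the list's median log2 fold change was 0.30 against 0.02 for all genes. Capg, Anxa2 and S100a6 were steady. Vim, the intermediate filament gene vimentin, had 198 to 332 CPM in HFD KC, against 126 to 148 CPM in STD KC (0.97 ± 0.20, adjusted p = 0.00995). The Vim call was lost without std2 or std3 (adjusted p up to 0.0805). The calls of Sema4d, Lmna, S100a4 and Flna were lost without std2 or std3 (adjusted p up to 0.087), without hfd2, hf2, hf3, std1, std2 or std3 (adjusted p up to 0.193), without std1 or std3 (adjusted p up to 0.128) and without std1, std2 or std3 (adjusted p up to 0.146).

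Several of the 14 largest steady rises that reached 20 CPM on average encode surface or secreted proteins. Mmp12, the macrophage elastase, had 681, 1463, 745, 1255 and 1634 CPM in HFD KC, against 101, 19.7 and 28.9 CPM in STD KC (4.53 ± 0.50, adjusted p = 0.000142), and std1 was its highest STD KC library. Cd63, a tetraspanin of late endosomes and lysosomes, had 72.8, 213, 62.2, 121 and 126 CPM in HFD KC, against 15.5, 5.69 and 6.34 CPM in STD KC (3.70 ± 0.41, adjusted p = 0.000142). A pseudogene copy of it, Cd63-ps, is counted apart with a mean of 2.02 CPM in HFD KC and 0.179 CPM in STD KC, so that reads may be split between them. Cd9, a tetraspanin of the plasma membrane, had 172, 196, 120.4, 170.5 and 173 CPM in HFD KC, against 42.3, 32.8 and 35.6 CPM in STD KC (2.17 ± 0.24, adjusted p = 0.000142) and Itgax, the integrin chain CD11c, had 35.9, 102, 17, 40.2 and 47.9 CPM in HFD KC, against 7.99, 4.2 and 5.23 CPM in STD KC (3.07 ± 0.44, adjusted p = 0.00118). All HFD KC libraries exceeded all STD KC libraries for these genes, which was a condition for choosing the 14. Anpep, the surface peptidase CD13, had 27.2 to 116 CPM in HFD KC, against 4.58 to 11.1 CPM in STD KC (3.12 ± 0.40, adjusted p = 0.000375). Ccl9, a chemokine of macrophages, had 79.5 to 262 CPM in HFD KC, against 10.7 to 21 CPM in STD KC (3.13 ± 0.46, adjusted p = 0.00151) with hfd2 far above the other 4.

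Among the steady rises were 3 adaptors of immune receptor signalling. Stap1, an adaptor first described in B cells, had 41.2, 35.8, 24.5, 23.8 and 43.1 CPM in HFD KC, against 8.97, 6.87 and 7.05 CPM in STD KC (2.14 ± 0.24, adjusted p = 0.000142). Lat2, a membrane adaptor of mast cells, B cells and myeloid cells, had 18.2, 46.1, 6.8, 13.5 and 17.4 CPM in HFD KC, against 4.69, 2.13 and 2.64 CPM in STD KC (2.69 ± 0.46, adjusted p = 0.00364). Blnk, an adaptor downstream of the kinase SYK, had 59.3, 91.5, 38.7, 60.1 and 52 CPM in HFD KC, against 23.5, 19 and 14.5 CPM in STD KC (1.67 ± 0.28, adjusted p = 0.00333). B cells also express all 3, and the summed level of the 11 tested B and plasma cell markers was 597, 510, 709, 733 and 1243 CPM in HFD KC, against 275, 76.9 and 87.4 CPM in STD KC. All 11 of these markers had log2 fold changes above 0, and their part in the adaptor rises was not tested. On the list of Fc receptors and their signalling partners 0 of 20 were called, with a median log2 fold change of 0.08.

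Lipid, sorting and heme genes were among the steady rises as well. Sorl1, a sorting receptor of endosomes, had 28, 25.4, 26.6, 22.3 and 27.7 CPM in HFD KC, against 6.02, 5.12 and 6.64 CPM in STD KC (2.13 ± 0.26, adjusted p = 0.00036). Atp8b4, a putative phospholipid flippase, had 13.6 to 59 CPM in HFD KC, against 3.08 to 6.53 CPM in STD KC (2.71 ± 0.38, adjusted p = 0.00109). Angptl4, a secreted inhibitor of lipoprotein lipase, had 18.2, 35.6, 20.2, 40.5 and 24 CPM in HFD KC, against 7.86, 5.34 and 6.17 CPM in STD KC (2.10 ± 0.26, adjusted p = 0.00036). Abca1, which exports cholesterol, had 217 to 301 CPM in HFD KC, against 133 to 161 CPM in STD KC (0.83 ± 0.13, adjusted p = 0.00209). Gla, the lysosomal alpha-galactosidase, had 47.7 to 86.7 CPM in HFD KC, against 21.5 to 27.4 CPM in STD KC (1.44 ± 0.22, adjusted p = 0.00167). Igf2r, which carries lysosomal enzymes to the lysosome, had 40.4 to 56.7 CPM in HFD KC, against 19.1 to 29.2 CPM in STD KC (1.05 ± 0.16, adjusted p = 0.00209). Cstb, an inhibitor of cathepsins, had 244 to 310.3 CPM in HFD KC, against 148 to 179 CPM in STD KC (0.70 ± 0.11, adjusted p = 0.00209). Alas1, the first enzyme of heme synthesis, had 140.3 to 228 CPM in HFD KC, against 81.7 to 99.2 CPM in STD KC (1.04 ± 0.16, adjusted p = 0.00209). None of these overlapped between the diets, which for Sorl1, Atp8b4 and Angptl4 was a condition of their choice.

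Among genes of survival and signalling, Bcl2, which restrains cell death at mitochondria, had 16.5, 15.7, 15.2, 15.9 and 15.6 CPM in HFD KC, against 5.58, 2.83 and 4.43 CPM in STD KC (1.88 ± 0.23, adjusted p = 0.000284). Procr, the endothelial protein C receptor, had 63.9, 55.2, 69.6, 63.5 and 62.7 CPM in HFD KC, against 27.1, 23.3 and 31.7 CPM in STD KC (1.20 ± 0.16, adjusted p = 0.000863). St7, a gene of unsettled function, had 42.3, 20.5, 51.5, 12.3 and 24.3 CPM in HFD KC, against 6.94, 5.53 and 7.16 CPM in STD KC (2.20 ± 0.37, adjusted p = 0.00319). Tlr1, a partner of TLR2 in sensing bacterial lipoproteins, had 156, 140.4, 105, 119 and 109 CPM in HFD KC, against 61.7, 38.7 and 44.3 CPM in STD KC (1.38 ± 0.22, adjusted p = 0.00263) and was the 1 called member of 25 on the list of Toll-like receptors and adaptors, whose median was -0.01. Havcr2, the inhibitory receptor TIM3, had 19.7 to 42.4 CPM in HFD KC, against 12.5 to 14.7 CPM in STD KC (1.23 ± 0.20, adjusted p = 0.00319). Ms4a7, a tetraspan gene of macrophages, had 126 to 242 CPM in HFD KC, against 62.8 to 75.1 CPM in STD KC (1.45 ± 0.19, adjusted p = 0.000699). Tnip3, which restrains NF-kappaB signalling, had 7.77 to 36.9 CPM in HFD KC, against 1.02 to 2.69 CPM in STD KC (3.58 ± 0.46, adjusted p = 0.000375).

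**Figure D2:**
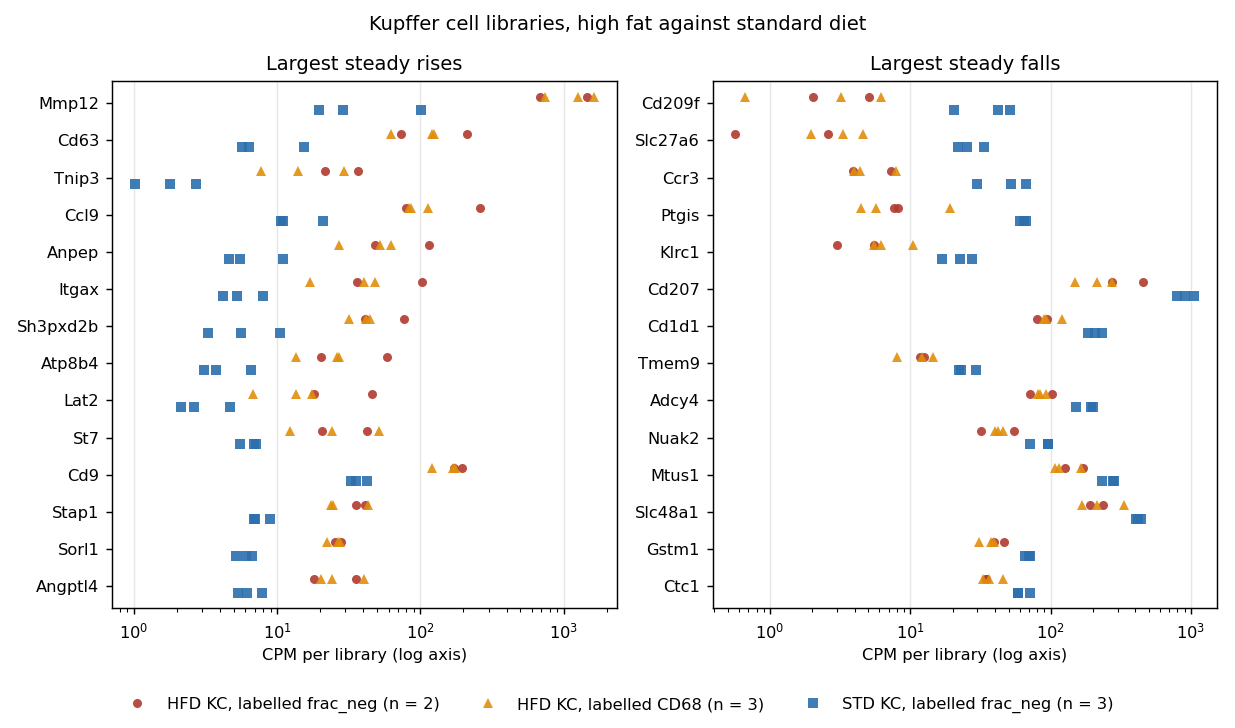
CPM per library (log axis) of the 14 largest steady rises and the 14 largest steady falls reaching 20 CPM on average in the group that was higher, with HFD KC libraries labelled frac_neg (circles, n = 2) and CD68 (triangles, n = 3) above STD KC libraries (squares, n = 3). That the HFD KC and STD KC symbols do not overlap in any row was a condition for choosing these genes. So was a change in the same direction with either of the 2 kinds of HFD KC library.

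Steady falls were fewer and were spread over receptors, lipid handling and small metabolic enzymes. Slc27a6, a fatty acid transport protein, had 0.566, 2.59, 1.96, 4.58 and 3.33 CPM in HFD KC, against 21.7, 33.3 and 25.4 CPM in STD KC (-3.36 ± 0.59, adjusted p = 0.00448). Ccr3, the eotaxin receptor known from eosinophils, had 3.9, 7.33, 4.34, 7.94 and 3.97 CPM in HFD KC, against 66.4, 51.8 and 29.6 CPM in STD KC (-3.17 ± 0.39, adjusted p = 0.00036). Ptgis, the enzyme that makes prostacyclin, had 7.69, 8.12, 5.67, 19.1 and 4.43 CPM in HFD KC, against 64, 66.4 and 60.4 CPM in STD KC (-2.82 ± 0.45, adjusted p = 0.00263). Each was several times lower in every HFD KC library than in any STD KC library, where absence of overlap was a condition of the choice. Ptgis is also expressed by endothelium. The summed level of the 13 markers of liver sinusoidal endothelium was 6652, 3163, 1898, 1965 and 7000.0 CPM in HFD KC, against 6767, 8867 and 6591 CPM in STD KC. The list's median log2 fold change was -0.62, with 1 of 13 values above 0, and its part in the Ptgis fall was not tested.

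The steady falls included genes for receptors. Cd207 (langerin), a lectin that binds mannose and other sugars, had 272, 453, 149.9, 271 and 215 CPM in HFD KC, against 792, 1058 and 903 CPM in STD KC (-1.75 ± 0.25, adjusted p = 0.00109). Cd209f, a gene of the DC-SIGN cluster with close relatives among which reads may be split, had 5.04, 2.03, 0.664, 3.2 and 6.14 CPM in HFD KC, against 20.6, 41.9 and 51.3 CPM in STD KC (-3.47 ± 0.65, adjusted p = 0.00632). Klrc1, which encodes NKG2A and lies in another cluster of related genes, had 3.01 to 10.4 CPM in HFD KC, against 16.9 to 27.4 CPM in STD KC (-1.87 ± 0.35, adjusted p = 0.00658). All HFD KC libraries were below all STD KC libraries for each, as the rule for choosing them required. Cd1d1, which presents lipids to natural killer T cells, had 93.6, 80.1, 90.2, 119.7 and 92.3 CPM in HFD KC, against 232, 184 and 207 CPM in STD KC (-1.13 ± 0.18, adjusted p = 0.0022). Ifngr1, the binding chain of the interferon gamma receptor, had 866, 721, 756, 886 and 736 CPM in HFD KC, against 1072, 1150.0 and 1249.7 CPM in STD KC (-0.55 ± 0.10, adjusted p = 0.00579), the smallest fold change among the steady falls.

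Other steady falls were of signalling and metabolic genes. Adcy4, an adenylate cyclase also known from endothelium, had 70.9 to 102 CPM in HFD KC, against 152 to 201 CPM in STD KC (-1.08 ± 0.16, adjusted p = 0.00167). Nuak2, a kinase related to AMPK, had 31.8 to 54.5 CPM in HFD KC, against 70.8 to 95.8 CPM in STD KC (-1.03 ± 0.17, adjusted p = 0.00263). Mtus1, a gene for microtubule-associated proteins, had 108 to 169 CPM in HFD KC, against 232 to 280.2 CPM in STD KC (-0.95 ± 0.15, adjusted p = 0.0022). Tmem9, a lysosomal membrane protein gene, had 7.96 to 14.5 CPM in HFD KC, against 22 to 29.4 CPM in STD KC (-1.08 ± 0.19, adjusted p = 0.00386). Slc48a1, which moves heme out of the phagolysosome, had 189.6, 237, 215, 332 and 168 CPM in HFD KC, against 421, 407 and 441 CPM in STD KC (-0.89 ± 0.16, adjusted p = 0.00579). Khk, the first enzyme of fructose breakdown, had 74.5, 63.1, 76.4, 94 and 75.3 CPM in HFD KC, against 119.9, 123 and 123 CPM in STD KC (-0.67 ± 0.12, adjusted p = 0.00469). Gstm1, a glutathione transferase with close paralogs, had 30.9 to 46.5 CPM in HFD KC, against 65.7 to 70.9 CPM in STD KC (-0.82 ± 0.14, adjusted p = 0.00325). Ctc1, of the complex that maintains telomeres, had 33 to 45.9 CPM in HFD KC, against 58.2 to 70.9 CPM in STD KC (-0.77 ± 0.12, adjusted p = 0.00167). Tipin, of the replication fork protection complex, had 15.3 to 17.6 CPM in HFD KC, against 25.5 to 26.7 CPM in STD KC (-0.69 ± 0.13, adjusted p = 0.00624).

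Promoter sequences were looked up to show what stands before these genes, from the RefSeq table (build GRCm38.p6) of 250 bases before to 50 after the most upstream start listed. Of the 105 steady genes, 82 had an entry. The motifs searched, on both strands, were TGANTCA for AP-1, GAGGAAG for the core bound by PU.1 and other ETS factors, CACGTG for the E-box of the MiT family, TTGCNNAA for C/EBP together with the NF-kappaB consensus. AP-1 letters stood in 18.3% of 60 promoters of steady rises and 13.6% of 22 of steady falls, against 5.33% of 11145 promoters of all genes tested and 7.92% of all 27025 in the table. The NF-kappaB consensus stood in 8.33% of the rises and 9.09% of the falls, against 4.87% of genes tested and 4.32% of the table. PU.1 and ETS letters stood in 18.3% of the rises and 4.55% of the falls, against 13.6% of genes tested and 13.5% of the table. The E-box stood in 13.3% of the rises and 13.6% of the falls, against 9.82% of genes tested and 7.24% of the table, and the C/EBP letters in 8.33% and 13.6%, against 8.86% and 10.7%. These shares are descriptions with no test, and a match is not a binding site.

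The following 6 promoters, 4 of rises and 2 of falls, were chosen after the matches were seen, because they hold AP-1 letters near the start of a gene with a steady change. Capitals mark all matches to the 5 motifs, and no matches overlap.
Ccl9 (chr11:83578587-83578886, minus strand): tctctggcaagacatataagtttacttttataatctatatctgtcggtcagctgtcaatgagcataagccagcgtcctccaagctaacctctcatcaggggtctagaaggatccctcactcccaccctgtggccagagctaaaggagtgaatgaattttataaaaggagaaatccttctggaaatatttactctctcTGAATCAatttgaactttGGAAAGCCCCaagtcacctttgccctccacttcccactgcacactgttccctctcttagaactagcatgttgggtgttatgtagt
Itgax (chr7:128129300-128129599, plus strand): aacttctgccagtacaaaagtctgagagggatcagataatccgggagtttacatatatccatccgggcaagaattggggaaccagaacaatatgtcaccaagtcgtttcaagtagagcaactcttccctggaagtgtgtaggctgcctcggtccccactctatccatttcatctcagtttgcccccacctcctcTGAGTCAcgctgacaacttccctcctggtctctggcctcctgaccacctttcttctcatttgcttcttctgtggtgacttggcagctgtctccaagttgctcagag
Anxa2 (chr9:69453433-69453732, plus strand): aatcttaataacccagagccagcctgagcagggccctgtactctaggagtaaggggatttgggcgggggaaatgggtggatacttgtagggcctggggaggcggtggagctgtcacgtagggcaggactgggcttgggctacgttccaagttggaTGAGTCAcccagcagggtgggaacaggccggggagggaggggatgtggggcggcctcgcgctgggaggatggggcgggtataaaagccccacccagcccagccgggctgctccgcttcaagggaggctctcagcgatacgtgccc
Il1rn (chr2:24336610-24336909, plus strand): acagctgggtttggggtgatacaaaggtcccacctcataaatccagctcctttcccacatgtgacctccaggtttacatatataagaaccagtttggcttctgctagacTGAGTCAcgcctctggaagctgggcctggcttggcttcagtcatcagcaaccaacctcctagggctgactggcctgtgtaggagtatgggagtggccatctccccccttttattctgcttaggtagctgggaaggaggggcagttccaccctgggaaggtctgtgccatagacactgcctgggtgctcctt
Ccr3 (chr9:124021721-124022020, plus strand): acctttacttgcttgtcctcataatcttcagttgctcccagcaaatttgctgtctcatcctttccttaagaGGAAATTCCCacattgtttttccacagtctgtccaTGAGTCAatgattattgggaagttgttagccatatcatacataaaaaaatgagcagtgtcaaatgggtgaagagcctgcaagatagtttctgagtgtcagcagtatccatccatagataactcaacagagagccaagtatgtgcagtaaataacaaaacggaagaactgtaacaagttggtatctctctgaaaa
Cd207 (chr6:83677808-83678107, minus strand): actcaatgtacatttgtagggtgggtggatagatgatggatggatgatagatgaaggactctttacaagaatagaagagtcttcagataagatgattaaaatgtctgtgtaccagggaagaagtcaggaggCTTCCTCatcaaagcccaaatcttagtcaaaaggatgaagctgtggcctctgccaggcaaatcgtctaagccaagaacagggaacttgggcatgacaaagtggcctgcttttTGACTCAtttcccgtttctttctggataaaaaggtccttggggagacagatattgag
Counted from the start, with the base before it as -1, the AP-1 letters begin at -53 in Ccl9, -56 in Itgax, -95 in Anxa2, -141 in Il1rn, -144 in Ccr3 and -7 in Cd207. Ccl9 and Ccr3 also hold NF-kappaB letters on the opposite strand, beginning at -35 and -179, and Cd207 holds ETS letters on the opposite strand, beginning at -119. The AP-1 letters occur in promoters of genes that moved either way.

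Next the risen genes were set beside the reporter-positive macrophages of the high fat liver. In Cx3cr1pos macs-HFD, Cx3cr1 and Ccr2, the receptors that mark monocytes and their progeny, stood far above HFD KC, so that the HFD KC mean was 2.44% of that level for Cx3cr1 and 6.25% for Ccr2. For the 34 steady rises that averaged 20 CPM or more in HFD KC, the same percentage ran from 11 to 306 with a median of 68.4. It was at least 50% in 24 of the 34, and 6 stood at or above the reporter-positive mean: Procr at 306%, St7 at 213%, Serpinb8 at 138%, Igf2r at 106%, Il1rn at 102% and Abca1 at 101%. In the same order, the STD KC means of these 6 were 27.4, 6.55, 6.66, 23.3, 103 and 146 CPM. Their reporter-positive means were 20.6, 14.2, 18.9, 45.6, 427 and 256 CPM, so Procr stood above that level on standard chow as well. At the low end were Lat2 at 11%, Itgax at 19%, Sorl1 at 26.6% and Cd63 at 29.7%. The 34 were chosen for being higher in HFD KC and for averaging 20 CPM or more there. Cx3cr1 is the reporter gene of the other sort and stayed under 20 CPM in HFD KC. The gap between the percentages of the 34 and of Cx3cr1 and Ccr2 is therefore partly set by the choice of genes, and carry-over of reporter-positive cells was not tested. Cx3cr1 had 9.21, 15.2, 5.01, 14.3 and 4.74 CPM in HFD KC, against 3.07, 4.1 and 2.85 CPM in STD KC and did not pass (adjusted p = 0.0528). Ccr2 had 43, 33.3, 15.1, 21.9 and 37.4 CPM in HFD KC, against 9.03, 11.8 and 7.63 CPM in STD KC (1.67 ± 0.39, adjusted p = 0.0248). The Ccr2 call was lost without std1, std2 or std3 (adjusted p up to 0.156). In these bulk libraries a few cells with much of an RNA and many cells with little of it cannot be told apart.

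**Figure D3:**
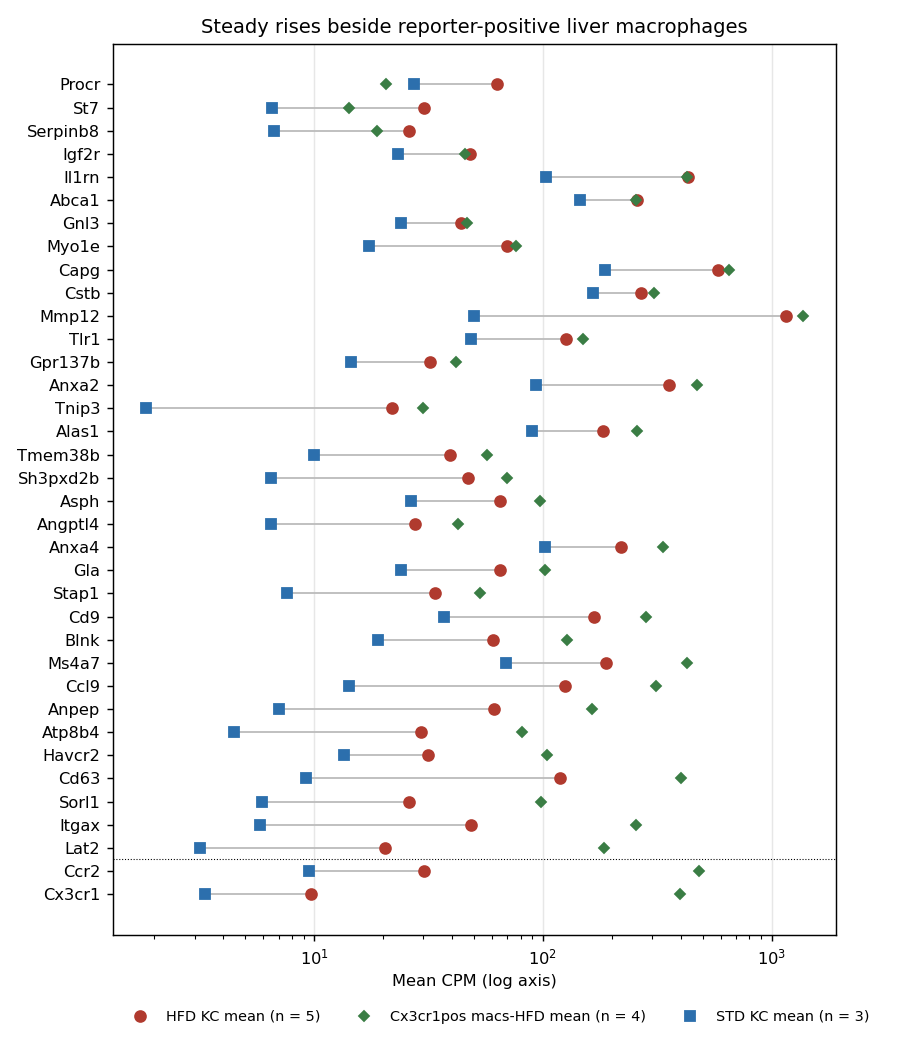
Mean CPM (log axis) in HFD KC (circles, n = 5), Cx3cr1pos macs-HFD (diamonds, n = 4) and STD KC (squares, n = 3) of the 34 steady rises with at least 20 CPM in HFD KC, ordered by the HFD KC level as a percentage of Cx3cr1pos macs-HFD, with Ccr2 and Cx3cr1 under the dotted line. The 34 lie at 11 to 306% of the reporter-positive level, and Ccr2 and Cx3cr1 at 6.25% and 2.44%. The 34 were chosen by their rise and level in HFD KC, and Cx3cr1 is the reporter gene of the other sort, which partly sets this gap.

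Function lists were read by their counts, beside 2.27% of genes higher and 1.13% lower among all tested. On the list of cytokines, 3 of 22 genes were higher and 1 lower. Il1rn, the natural antagonist that occupies the interleukin-1 receptor, had 358, 476, 298, 444 and 591 CPM in HFD KC, against 104, 99.5 and 106 CPM in STD KC (2.07 ± 0.23, adjusted p = 0.000142) and was steady. Il1b, the cytokine that it opposes, had 220.2, 88.2, 179, 160.3 and 329 CPM in HFD KC, against 573, 796 and 910.3 CPM in STD KC (-1.96 ± 0.41, adjusted p = 0.0129). The groups were apart for both and the genes moved in opposite directions. The Il1b call was lost without std2 or std3 (adjusted p up to 0.0792) and missed the threshold with only the CD68 libraries (adjusted p = 0.0525). Il1a, the other interleukin-1 agonist, had 133 to 217 CPM in HFD KC, against 218 to 261 CPM in STD KC, with no overlap but an adjusted p of 0.153. The calls of Osm, which encodes oncostatin M, and Mif were lost without std1, std2 or std3 (adjusted p up to 0.11) and without hfd2, hf1, hf2, hf3, std1, std2 or std3 (adjusted p up to 0.273).

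The list of lipid-associated macrophages, a state seen in obese tissue, had 10 of 22 genes higher and 0 lower, with a median of 1.43, and its 5 steady members were Cd9, Cd63, Mmp12, Anpep and Cstb. The calls of Trem2, Gpnmb and Dcstamp on that list were lost without std1, std2 or std3 (adjusted p up to 0.106), without std2 or std3 (adjusted p up to 0.128) and without std2 or std3 (adjusted p up to 0.0606).

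Chemokines and their receptors gave few calls. Of 23 chemokines 1 was higher, Ccl9, and 1 lower, Ccl24, an eotaxin, whose call was lost without hfd2, hf1, hf3, std1, std2 or std3 (adjusted p up to 0.144). The median of the list was 0.86 and 21 of 23 values were above 0. Of 20 chemokine and complement receptors, 3 were higher and 1, Ccr3, lower. Ccr7, which leads dendritic cells to lymph nodes, had 23.3, 13.6, 4.12, 12.6 and 59.3 CPM in HFD KC, against 2.12, 0.986 and 3.17 CPM in STD KC (3.42 ± 0.73, adjusted p = 0.0149), most of it in hf3, and the call was lost without std1, std2 or std3 (adjusted p up to 0.119). Cxcr4 had 6.33 to 17.3 CPM in HFD KC, against 2.54 to 4.4 CPM in STD KC (1.59 ± 0.35, adjusted p = 0.0169). The Cxcr4 call was lost without std1, std2 or std3 (adjusted p up to 0.114).

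Of 21 genes for prostanoid and leukotriene synthesis, 0 were higher and 2 lower, Ptgis and Alox5ap, with a list median of -0.16. Alox5ap, which hands arachidonate to the lipoxygenase that makes leukotrienes, had 211, 141, 302, 254 and 263 CPM in HFD KC, against 313, 557 and 595 CPM in STD KC (-1.06 ± 0.24, adjusted p = 0.02). The Alox5ap call was lost without std2 or std3 (adjusted p up to 0.138). Ptgs1, the constitutive cyclooxygenase, and Hpgds, a prostaglandin D synthase, did not pass, with 1130.1 to 1926 CPM in HFD KC, against 1925 to 2029.6 CPM in STD KC, and with 142 to 223 CPM in HFD KC, against 121 to 149 CPM in STD KC. Ptger4, a receptor for prostaglandin E2, had 11.6, 9.72, 15.3, 4.83 and 15.4 CPM in HFD KC, against 3.26, 1.97 and 1.97 CPM in STD KC (2.24 ± 0.37, adjusted p = 0.00298) and was steady. Ptger2, another receptor for it, had 56.3 to 94.3 CPM in HFD KC, against 46.9 to 49.99 CPM in STD KC without passing (adjusted p = 0.112).

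Of 18 purine receptors and ectoenzymes, 4 were higher and 1 lower. Adora2b, a receptor for adenosine, had 4.02, 4.31, 2.27, 3.77 and 4.66 CPM in HFD KC, against 0.539, 0.0954 and 0.264 CPM in STD KC (3.65 ± 0.43, adjusted p = 0.000284). P2ry2, a receptor for ATP and UTP, had 0.984, 1.3, 1.24, 0.91 and 1.72 CPM in HFD KC, against 0.285, 0.127 and 0.382 CPM in STD KC (2.20 ± 0.38, adjusted p = 0.00364). Both were steady, and both stood at a few CPM at most. P2ry14, a receptor for UDP-glucose, had 36.7, 53.7, 32.5, 50.02 and 31.2 CPM in HFD KC, against 21.4, 11.7 and 15.4 CPM in STD KC (1.34 ± 0.24, adjusted p = 0.00465). The P2ry14 call was lost without std2 (adjusted p 0.0557). The calls of P2rx4, a channel opened by ATP, and of Ada, which breaks down adenosine and was the 1 lower, were lost without hfd1, hf1, std1, std2 or std3 (adjusted p up to 0.197) and without hfd1, hf3, std2 or std3 (adjusted p up to 0.241).

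Among lipid and energy genes, 4 of 24 on the list of lipid droplet, lipase and PPAR target genes were higher and 0 lower. Plin2, which coats lipid droplets, had 920.4, 1509, 1111, 1209 and 994 CPM in HFD KC, against 573, 559 and 691 CPM in STD KC (0.92 ± 0.16, adjusted p = 0.00448). The Plin2 call was lost without std2 (adjusted p 0.0525). Cd36, which takes up fatty acids, had 1747, 1923, 1044, 1407 and 1635 CPM in HFD KC, against 826, 383 and 383 CPM in STD KC (1.55 ± 0.31, adjusted p = 0.0107), with std1 above the other STD KC libraries and a call lost without std2 or std3 (adjusted p up to 0.107). Cidec, of lipid droplet fusion, was steady at a low level, 0.179 to 1.94 CPM in HFD KC, against 0 to 0.0587 CPM in STD KC. Of 15 LXR targets 4 were higher and 0 lower: Abca1, steady, and Apoc2, Lpcat3 and Scd2, whose calls were lost without hfd2, std1, std2 or std3 (adjusted p up to 0.146), without std1, std2 or std3 (adjusted p up to 0.128) and without hfd1, hfd2, std1, std2 or std3 (adjusted p up to 0.192). Of 23 genes of cholesterol synthesis 0 passed, with a median of -0.05.

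Of 23 genes of fatty acid oxidation the 1 that passed was Slc25a20, the carrier of acylcarnitine into mitochondria. It had 59.3, 53.7, 63.2, 56.7 and 63.3 CPM in HFD KC, against 40.1, 41 and 41.6 CPM in STD KC (0.54 ± 0.10, adjusted p = 0.00833). The Slc25a20 call was lost without std2 or std3 (adjusted p up to 0.0606). Of 16 glycolysis genes 2 were higher, with a median of 0.38. Ldha, which makes lactate, had 589, 669, 631, 639.9 and 589 CPM in HFD KC, against 416, 379 and 418 CPM in STD KC (0.62 ± 0.12, adjusted p = 0.00643). The Ldha call was lost without std2 (adjusted p 0.0833). Slc16a3, which exports lactate, had 5.39 to 13.2 CPM in HFD KC, against 3.36 to 4.71 CPM in STD KC (1.42 ± 0.26, adjusted p = 0.00613). The Slc16a3 call was lost without std1 or std3 (adjusted p up to 0.0521). Of 26 nuclear genes of the respiratory chain 0 passed, with a median of 0.07.

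Lysosome, matrix and adhesion lists had rises. Of 34 lysosomal hydrolase and proton pump genes 6 were higher and 0 lower, with a median of 0.14, and Gla was the 1 steady member. The calls of the proton pump genes Atp6v0a1, Atp6v0d2, Atp6v1b2 and Atp6v1c1 were lost without hfd1, hfd2, hf3, std1, std2 or std3 (adjusted p up to 0.231), without std2 or std3 (adjusted p up to 0.11), without hfd2, hf1, hf2, std1, std2 or std3 (adjusted p up to 0.212) and without hfd2, std1, std2 or std3 (adjusted p up to 0.181), and that of Gusb, a glucuronidase, without hfd1, hfd2, hf2, std1, std2 or std3 (adjusted p up to 0.177). Of 22 matrix remodelling genes 5 were higher and 1 lower, with a median of 1.05. Mmp13, a collagenase, had 33.1, 291, 43, 202 and 156 CPM in HFD KC, against 21.2, 10.8 and 10.01 CPM in STD KC (3.37 ± 0.66, adjusted p = 0.00862), from hfd1 near std1 to hfd2 at over 10 times it, and the call was lost without std2 or std3 (adjusted p up to 0.078). Plaur, the urokinase receptor, had 104, 141, 77, 118 and 195 CPM in HFD KC, against 38, 35.2 and 50.4 CPM in STD KC (1.63 ± 0.29, adjusted p = 0.00524). The Plaur call was lost without std2 (adjusted p 0.0565). The calls of Mmp19, Adam8 and the protease inhibitor Timp2, the 1 lower, were lost without hfd2, hf2, hf3, std1, std2 or std3 (adjusted p up to 0.212), without std1, std2 or std3 (adjusted p up to 0.192) and without hfd1, hfd2, std2 or std3 (adjusted p up to 0.238).

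Of 23 integrins and adhesion genes, 4 were higher and 1 lower. Itgax was the steady one. Itgb7, the lower one, had 9.82 to 17.6 CPM in HFD KC, against 18.4 to 34.9 CPM in STD KC (-1.18 ± 0.23, adjusted p = 0.00753). The Itgb7 call was lost without std2 or std3 (adjusted p up to 0.0792). The calls of Itgad and Itga5 were lost without std1, std2 or std3 (adjusted p up to 0.0738) and without hfd1, hfd2, hf3, std1, std2 or std3 (adjusted p up to 0.209).

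Of 20 iron and heme genes 3 were higher and 1, Slc48a1, lower. Tfrc, the transferrin receptor, had 49.2, 39.6, 60.01, 52.8 and 86.9 CPM in HFD KC, against 30.1, 18.8 and 29.6 CPM in STD KC (1.14 ± 0.24, adjusted p = 0.0143). The Tfrc call was lost without std2 or std3 (adjusted p up to 0.134). Hp and Hpx, the scavengers of haemoglobin and heme that hepatocytes secrete in bulk, had 22.6 to 104 CPM in HFD KC, against 13.5 to 16.7 CPM in STD KC, and 15.2 to 75.1 CPM in HFD KC, against 9.28 to 10.8 CPM in STD KC, and their calls were lost without hfd1, hfd2, hf1, std1, std2 or std3 (adjusted p up to 0.192) and without std1, std2 or std3 (adjusted p up to 0.0894). The summed level of the 20 hepatocyte markers ran from 196 to 814 CPM in HFD KC, against 260 to 591 CPM in STD KC. It was highest in hfd1 and lowest in hf2, the same libraries in which Hp and Hpx were highest and lowest within HFD KC, and its part in the Hp and Hpx calls was not tested.

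Several lists gave few or no calls. No member passed among 16 genes of MHC class I presentation (median -0.09) and 16 complement genes (median -0.05). On MHC class II presentation 1 of 14 was higher, H2-Eb2, and on the interferon-stimulated list 1 of 24, Oasl1, whose calls were lost without std2 or std3 (adjusted p up to 0.13) and without hfd1, hf1, hf3, std1, std2 or std3 (adjusted p up to 0.167). Of 27 macrophage transcription factors 1 was higher, Pparg, a nuclear receptor of lipid handling, with 29, 71.1, 24.1, 33 and 29.4 CPM in HFD KC, against 20.3, 12.4 and 13.3 CPM in STD KC (1.28 ± 0.32, adjusted p = 0.0385). The Pparg call was lost without std1, std2 or std3 (adjusted p up to 0.222). Of 26 scavenger receptors and genes of dying cell uptake, Cd36 was higher and Gas6, a bridging protein, lower, a call lost without hfd2, std2 or std3 (adjusted p up to 0.215). Gas6 was also the 1 call among 20 growth and angiogenic factors (median -0.02). Of 22 NF-kappaB feedback genes Tnip3 and Irak3 were higher, and the Irak3 call was lost without std1, std2 or std3 (adjusted p up to 0.154).

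Lists of stress and growth responses gave 1 or 2 calls each. Of 25 NRF2 and antioxidant genes, Slc7a11 was higher and Gstm1 lower, and the Slc7a11 call, which is also the 1 of 19 on amino acid transport, was lost without std1, std2 or std3 (adjusted p up to 0.116). Of 22 endoplasmic reticulum stress genes Ero1l was higher, a call lost without hfd2, std1, std2 or std3 (adjusted p up to 0.159). Of 23 immediate early genes Egr2 was higher and Fosl2 lower, calls lost without std2 or std3 (adjusted p up to 0.15) and without hfd1, hf1, hf2, std2 or std3 (adjusted p up to 0.259). Of 22 BMP and TGF-beta genes Tgif1 was lower, a call lost without std2 or std3 (adjusted p up to 0.11). On the alternative activation list 2 of 19 were lower, Cd209f and Ccl24, against 1.13% of all genes. The summed level of that list was 4367 to 5703 CPM in HFD KC, against 6286 to 7854 CPM in STD KC. Its median log2 fold change was 0.12, with 11 of 19 values above 0, so the lower sum was not shared by most members. Of 22 Kupffer cell identity genes 1, Cd207, was lower and 0 higher, with a list median of -0.29, and 6 of the 22 values were above 0.

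C-type lectins divided by gene, with 3 of 27 higher and 2 lower. Those lower were Cd207 and Cd209f. Clec5a, a receptor that signals through DAP12, had 7.45, 10.8, 8.38, 8.91 and 11 CPM in HFD KC, against 3.64, 4.9 and 3.49 CPM in STD KC (1.21 ± 0.22, adjusted p = 0.00508) and was steady. Clec4d and Clec4e, neighbouring receptors for fungal and dead cell ligands, had 5.55 to 9.45 CPM in HFD KC, against 1.94 to 2.86 CPM in STD KC, and 0.691 to 3.16 CPM in HFD KC, against 0.382 to 0.587 CPM in STD KC, with calls lost without std1, std2 or std3 (adjusted p up to 0.127) and without hfd1, hfd2, hf3, std1, std2 or std3 (adjusted p up to 0.191).

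Cell cycle genes were on the low side, with 0 of 30 higher, 4 lower and a list median of -0.33. Mcm3, a subunit of the replication helicase, had 132, 134, 99.2, 111 and 105 CPM in HFD KC, against 164, 172 and 179 CPM in STD KC (-0.56 ± 0.13, adjusted p = 0.0215). Mcm5, another, had 77.1, 90.3, 47.3, 63.1 and 56 CPM in HFD KC, against 100.3, 113 and 125 CPM in STD KC (-0.76 ± 0.16, adjusted p = 0.0164). Mcm7 had 23.5 to 38.5 CPM in HFD KC, against 45.5 to 55.7 CPM in STD KC (-0.72 ± 0.16, adjusted p = 0.0225). Tyms, which makes thymidylate, had 14.8 to 21.7 CPM in HFD KC, against 28.8 to 32.7 CPM in STD KC (-0.77 ± 0.15, adjusted p = 0.00914). The CD68 libraries were lower than the frac_neg ones for Mcm3, Mcm5, Mcm7 and Tyms in each library. With only the frac_neg libraries none of the 4 passed (adjusted p of 0.266 for Mcm3, 0.168 for Mcm5, 0.252 for Mcm7 and 0.143 for Tyms). The calls were also lost without std1, std2 or std3 (adjusted p up to 0.112), without std2 or std3 (adjusted p up to 0.114), without std2 or std3 (adjusted p up to 0.129) and without std2 or std3 (adjusted p up to 0.0625).

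**Figure D4:**
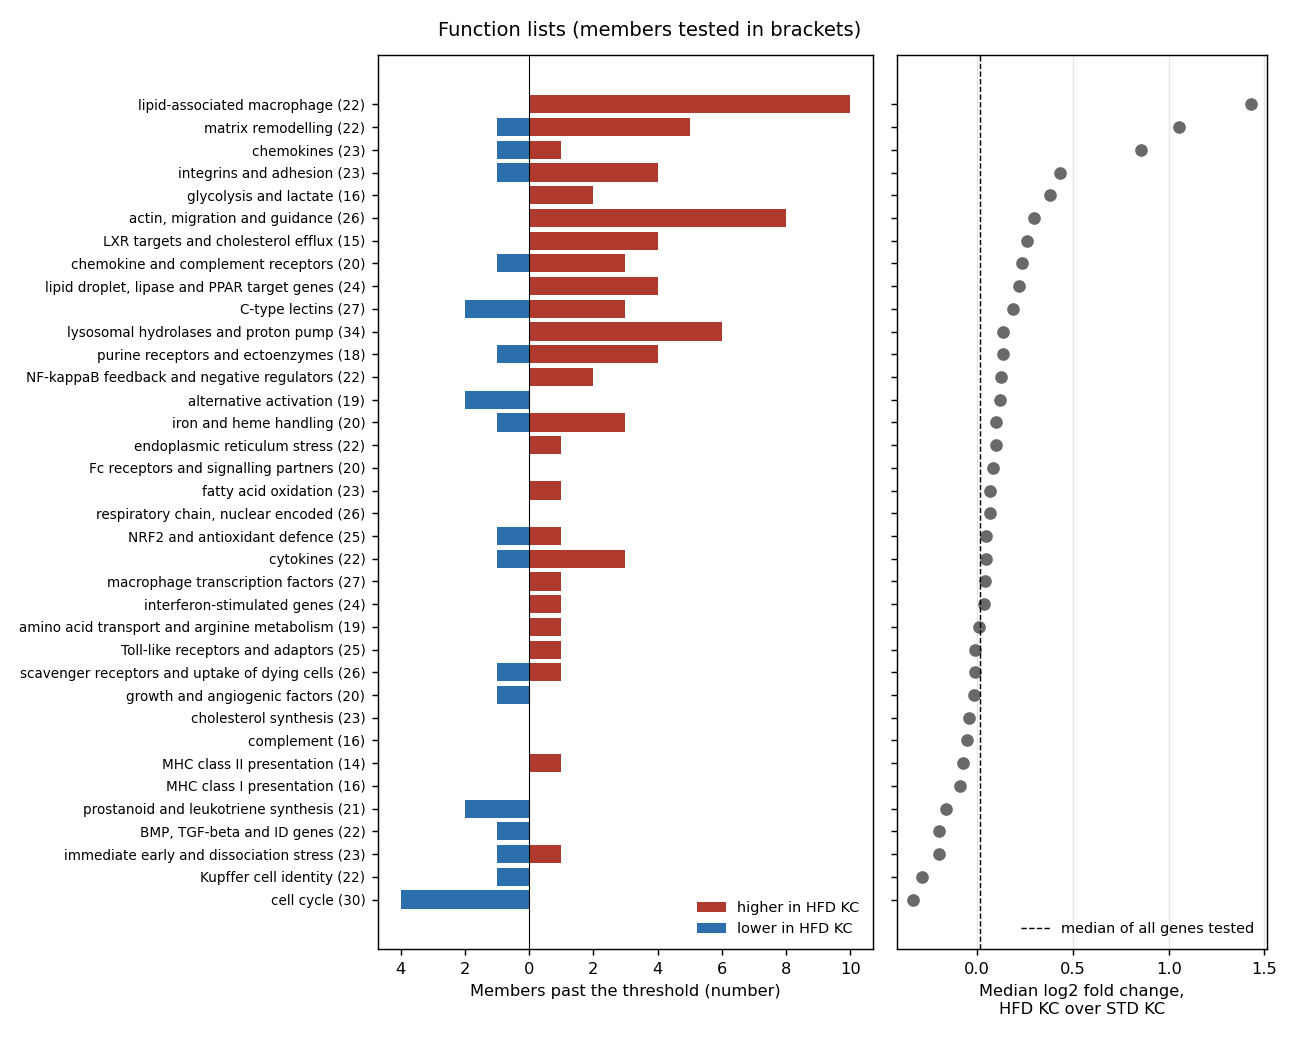
Function lists ordered by median log2 fold change, with the number of tested members in brackets. Left, members past the threshold that were higher in HFD KC (right of 0) or lower (left of 0). Right, the median log2 fold change of HFD KC over STD KC, from -0.33 for cell cycle to 1.43 for the lipid-associated list, with the median of all genes (0.02) as a dashed line.

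Markers of other cells show how far the libraries hold more than macrophages. Counts of calls on the marker lists stand beside 2.27% of genes higher and 1.13% lower among all tested. The 11 B and plasma cell markers all had log2 fold changes above 0, with a median of 2.83, and 3 passed: Ms4a1, Ighm and Igkc. Ighm had 242, 255, 346, 321 and 482 CPM in HFD KC, against 123, 16.6 and 16.9 CPM in STD KC (2.66 ± 0.66, adjusted p = 0.0334), and these calls were lost without hf2, hf3, std1, std2 or std3 (adjusted p up to 0.21), without hf3, std2 or std3 (adjusted p up to 0.178) and without hfd1, hfd2, hf1, hf2, hf3, std2 or std3 (adjusted p up to 0.241). Of 18 T and NK cell markers 4 were higher (Cd8b1, Cd2, Klrb1c and Ncr1) and 1 lower (Cd4), with a median of 1.998, 17 of 18 values above 0 and summed levels of 39.4 to 226 CPM in HFD KC, against 45.3 to 52.0 CPM in STD KC. Their calls were lost without hfd2, hf3, std1, std2 or std3 (adjusted p up to 0.171), without hf3, std1, std2 or std3 (adjusted p up to 0.161), without std2 (adjusted p 0.056), without std2 (adjusted p 0.0735) and without std3 (adjusted p 0.0504). Of 12 dendritic cell markers Ccr7 and Btla were higher, the Btla call being lost without std2 (adjusted p 0.0558), with a list median of 1.30, 11 of 12 values above 0 and sums of 136 to 263 CPM in HFD KC, against 126 to 137 CPM in STD KC. The 18 monocyte-derived markers summed to 667 to 1150.2 CPM in HFD KC, against 605 to 699 CPM in STD KC, and to 2110 to 2804 CPM in Cx3cr1pos macs-HFD. Of those 18, 7 were higher, among them Itgax, S100a6 and Ms4a7, which were steady.

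The hepatocyte list had 1 call of 20, Tat, a tyrosine-degrading enzyme, lower in HFD KC with 4.52 to 16.9 CPM in HFD KC, against 16.3 to 35.5 CPM in STD KC and a call lost without std2 or std3 (adjusted p up to 0.116). The median log2 fold change of the hepatocyte list was 0.33, with 12 of 20 values above 0. No endothelial (13), stellate cell (11), cholangiocyte (4), neutrophil (9), erythroid (6) or platelet (5) marker passed, with the number tested in brackets. Their median log2 fold changes were -0.62 for endothelial markers (1 of 13 above 0), 0.01 for stellate cell (6 of 11), 0.56 for cholangiocyte (2 of 4), 0.87 for neutrophil (7 of 9), 1.33 for erythroid (6 of 6) and 2.04 for platelet markers (5 of 5). The erythroid sums were 15.8 to 99.8 CPM in HFD KC, against 14.6 to 26.0 CPM in STD KC, and the platelet sums 44.4 to 62.9 CPM in HFD KC, against 39.6 to 45.5 CPM in STD KC. The basophil, mast cell and eosinophil list had 1 call of 8, Ccr3, and its summed level was 15.2 to 90.1 CPM in HFD KC, against 91.0 to 167 CPM in STD KC. That sum includes Ccr3 itself, which had 3.9 to 7.94 CPM in HFD KC, against 29.6 to 66.4 CPM in STD KC, so the lower sum partly restates the Ccr3 fall. The list's median log2 fold change was 0.62, with 5 of 8 values above 0. The part of eosinophils or mast cells in the Ccr3 fall was not tested. The part of the other cell types in the rises and falls was not tested either.

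**Figure D5:**
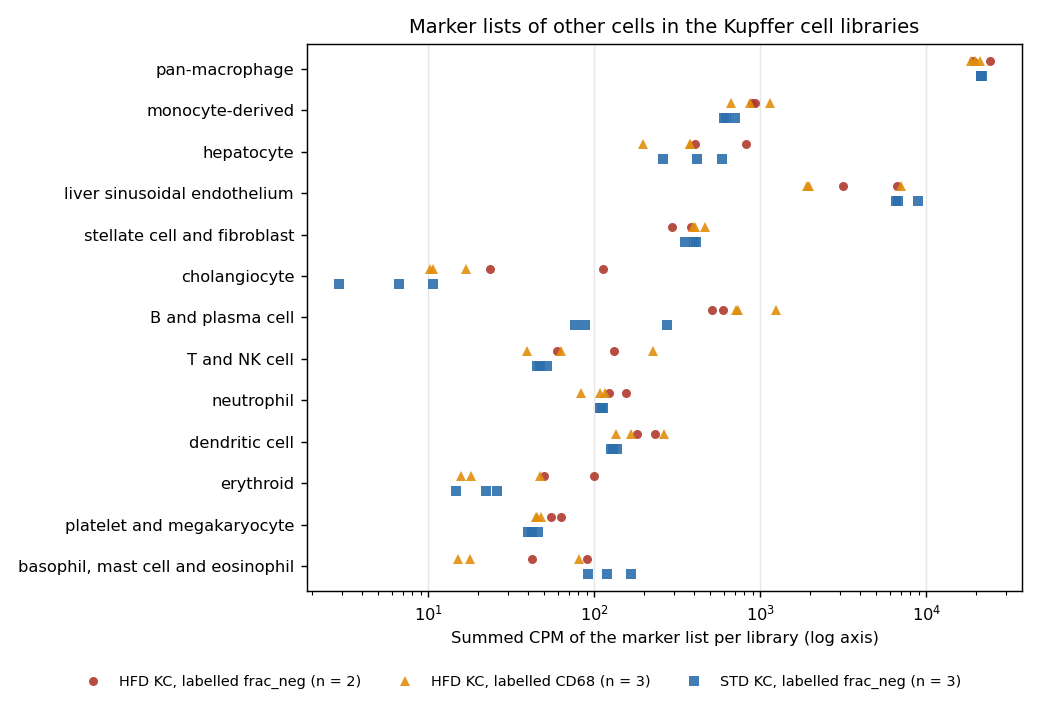
Summed CPM (log axis) of each marker list in the HFD KC libraries labelled frac_neg (circles, n = 2) and CD68 (triangles, n = 3), above the STD KC libraries (squares, n = 3). B and plasma cell markers sum to 510 to 1243 CPM in HFD KC, above the 76.9 to 275 CPM of STD KC, whereas the pan-macrophage, hepatocyte and neutrophil sums of the diets overlap.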

How the data were processed

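Libraries were made from total RNA of sorted macrophages with the SMARTer chemistry and read from 1 end over 50 bases, per the labels' protocols. Per the submitters' processing notes the tools were bcl2fastq, STAR 2.0.4b and Subread featureCounts 1.4.5; the genome build and annotation are not given in the sources used here, nor whether duplicates were removed. The deposited values are raw counts per gene, made by the authors, in 40824 entries. Of these, 276 repeat an identifier, and only the first entry of each identifier was kept, which left 40548 genes. Reads shared by close gene copies may be split or dropped, and the strand setting is not stated. Depth statements cover counting error only.

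Counts of all 17 libraries were fitted together in edgeR 4.0.16 (R 4.3.3) with TMM factors, filterByExpr (15285 genes kept), 1 coefficient per group, two-sided quasi-likelihood F-tests and Benjamini-Hochberg adjustment over all genes tested, threshold 0.05. The ± beside a log2 fold change is its SE. CPM values are TMM-scaled. The same test compared CD68 with frac_neg libraries inside HFD KC. Alternatives were DESeq2 1.42.0, other scalings, no filter, only the 8 Kupffer cell libraries, HFD KC of 1 label, a prefix term, a replicate block and each library left out.

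The comparison and the 36 function and 14 marker lists were chosen with earlier results of these data known. The rule for named genes took the 14 largest steady rises and falls that averaged 20 CPM or more in the group with more and whose libraries did not overlap, unnamed models, pseudogenes and receptor segments left out (34 rises and 20 falls qualified), list members past the threshold with the smallest adjusted p (up to 4), up to 2 that did not pass, and sort markers. Other genes were chosen after their values were seen: called list members beyond the first 4, Trem2, Gpnmb, Dcstamp, Capg, Anxa2, Anxa4, Myo1e, Blnk, Igf2r, Alas1, Bcl2, Procr, Havcr2, Ms4a7, Serpinb8, Ptger4, Ptger2, Cd63-ps, Khk, Ifngr1, Tipin, Il1a and those of the closing observations. Of the listed symbols, 7 are not in the table. The values of 1 called list member are not reported here.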

Additional observations from a re-analysis of the deposited data

Results flagged for a closer look

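In groups of 4 to 10 libraries, a library was noted when the gap between it and the nearest other took more of the group's range than Dixon's 95% criterion allows. Only HFD KC was checked here, and not Cx3cr1pos macs-HFD or ATMs-HFD, which are also of that size. In HFD KC 165 values were checked and 20 were noted, where chance alone flags about 1 in 20 groups. Most concern hfd2. In hfd2, Anxa2 stood at 474 CPM with the other 4 HFD KC libraries at 309 to 350 CPM, and Ccl9 at 262 CPM with the others at 79.5 to 112 CPM. Also in hfd2, Pparg stood at 71.1 CPM (others 24.1 to 33.0), Adam8 at 185 CPM (others 9.07 to 39.2), Gpnmb at 1586 CPM (others 124 to 389.6), Sema4d at 74.3 CPM (others 5.59 to 24.4), Slc7a11 at 4.20 CPM (others 0.910 to 1.54) and Bcl2l1 at 350.1 CPM (others 175 to 216). The proton pump genes Atp6v0a1 and Atp6v0d2 stood there at 229 and 143 CPM, with the others at 127 to 148 CPM and at 14.5 to 46.2 CPM. The cholangiocyte markers summed to 112 CPM in hfd2, with the others at 10.2 to 23.4 CPM.

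In hf2, Ptgis stood at 19.1 CPM (others 4.43 to 8.12), Ctc1 at 45.9 CPM (others 33.0 to 36.0) and Mup7 at 0 CPM (others 0.0256 to 0.0298, which is about 1 count). In hf1, Slc16a3 stood at 5.39 CPM (others 11.2 to 13.2), Nop58 at 75.0 CPM (others 45.0 to 51.0) and Rrp9 at 19.4 CPM (others 11.1 to 13.3). In hf3, Igkc stood at 431 CPM (others 165 to 224) and Cd2 at 13.5 CPM (others 2.80 to 5.11). In hfd1, Adgre1, which encodes F4/80, stood at 7018 CPM (others 4089 to 4717).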

How the results depend on the processing

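The 519 genes past the threshold (347 higher and 172 lower in HFD KC) became 1156 with DESeq2 (788 higher, 368 lower) and 231 with only the 8 Kupffer cell libraries in the fit (146 higher, 85 lower). With only CD68 libraries 224 genes were higher, and with only frac_neg libraries 102 were lower. Leaving out 1 library at a time gave 125 to 545 genes (85 to 407 higher, 40 to 181 lower), the lowest without std2 and the next without std3 (161) and std1 (291). Other scalings, no filter and the prefix term stayed within 1.5 times. Between sort labels the count of 0 became 28 with DESeq2 and 0 to 205 with 1 library left out. The same numbers in library names did not go with shared deviations between the diets (r from -0.135 to 0.0270 over the same-numbered pairs of HFD KC and STD KC). Such pairs are on different diets, so the check cannot say whether libraries of different sorts came from the same animal. Same-numbered libraries of HFD KC and the other high fat groups were not checked in this way. The replicate block gave 561 genes (362 higher, 199 lower) and, between labels, 0. Of 142 genes named that passed, 57 passed under all 17 alternatives. Of the 80 that were not steady, 32 did not pass with only frac_neg libraries and 36 with only CD68 ones. Adgre1, which did not pass, was at -0.00814 with only CD68 libraries, of the other sign than in the fit of all libraries. The median of all genes moved by less than 0.1 under every scaling. What caused these shifts was not tested. Genes under about 0.1 CPM rest on 3 counts or fewer per library.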

Other observations

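Genes of ribosome assembly lay on the high side in HFD KC. A list of 40 genes for ribosome biogenesis, made after the values of some of its members were seen and so without a test, had log2 fold changes above 0 in 40 of 40, a median of 0.39 (0.33 with only the frac_neg libraries and 0.39 with only the CD68 ones) and 13 genes past the threshold, against 2.27% of all genes. Gnl3, a nucleolar GTP-binding protein, had 39.8, 46.4, 56, 38.2 and 39.7 CPM in HFD KC, against 28.5, 20.8 and 22.3 CPM in STD KC (0.88 ± 0.15, adjusted p = 0.00298) and was steady. Nop58, of the complex that methylates ribosomal RNA, had 47.6, 45, 75, 51 and 49.8 CPM in HFD KC, against 36.3, 27.9 and 30.4 CPM in STD KC (0.77 ± 0.16, adjusted p = 0.0131), and Pwp2, of the early assembly machinery, had 26.4, 29.96, 30.4, 28.5 and 27.2 CPM in HFD KC, against 19.9, 19 and 19.1 CPM in STD KC (0.56 ± 0.12, adjusted p = 0.0179). The changes are small, and the libraries of the diets did not overlap for these 3. The calls of Nop58, Pwp2 and Rrp9 were lost without std2 or std3 (adjusted p up to 0.124), without std1, std2 or std3 (adjusted p up to 0.119) and without hfd2, hf1, hf3, std1, std2 or std3 (adjusted p up to 0.223). With only the frac_neg libraries these 3 also did not pass (adjusted p of 0.0741 for Nop58, 0.104 for Pwp2 and 0.201 for Rrp9), and with only the CD68 ones Pwp2 did not (adjusted p = 0.0524).

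Genes of the DNA replication fork lay on the low side. A list of 32, also made after values were seen, had 0 above 0, a median of -0.50 and 9 genes past the threshold, all lower, against 1.13% of all genes. The median was -0.66 with only the CD68 libraries and -0.33 with only the frac_neg ones. Besides the helicase subunits, Rfc4, of the clamp loader, had 13.7, 14.5, 13.2, 13.8 and 12.2 CPM in HFD KC, against 22.6, 19.3 and 22 CPM in STD KC (-0.66 ± 0.13, adjusted p = 0.00837), Lig1, the ligase that joins new strands, had 36.9, 40.7, 23.5, 27.3 and 29.3 CPM in HFD KC, against 47.2, 57.7 and 59.2 CPM in STD KC (-0.79 ± 0.17, adjusted p = 0.0152) and Asf1b, a histone chaperone, had 34.8, 38.4, 21.2, 25.3 and 27.2 CPM in HFD KC, against 52.9, 52.6 and 48.8 CPM in STD KC (-0.81 ± 0.16, adjusted p = 0.0105). For Lig1 and Asf1b the CD68 libraries lay below the frac_neg ones, which lay below STD KC. Their calls were lost without std3 (adjusted p 0.0518), without std2 or std3 (adjusted p up to 0.104) and without std2 (adjusted p 0.0685), and those of Cdc6 and Prim2 without hf1, hf2, hf3, std1, std2 or std3 (adjusted p up to 0.161) and without hfd1, hf1, hf2, hf3, std1, std2 or std3 (adjusted p up to 0.185). With only the frac_neg libraries none of the 5 passed (adjusted p of 0.097 for Rfc4, 0.194 for Lig1, 0.127 for Asf1b, 0.31 for Cdc6 and 0.276 for Prim2). With only the CD68 libraries Prim2 did not pass (adjusted p = 0.0574).

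Survival genes beside Bcl2 were also read after the fact. Of 14 members of the BCL2 family 4 were higher and 0 lower, against 2.27% and 1.13% of all genes: Bcl2, Bcl2l1, Bcl2a1a and Bcl2a1d. The median log2 fold change of the 14 was 0.16, and 10 of the 14 values were above 0. Bcl2l1, which encodes BCL-XL, had 212, 350.1, 202, 175 and 216 CPM in HFD KC, against 121, 99.4 and 115 CPM in STD KC (1.05 ± 0.26, adjusted p = 0.0375). Bcl2a1a and Bcl2a1d are near-identical copies among which reads may be split. The calls other than Bcl2 were lost without hfd2, hf3, std1, std2 or std3 (adjusted p up to 0.21), without std1 or std2 (adjusted p up to 0.126) and without hfd1, hfd2, hf3, std1, std2 or std3 (adjusted p up to 0.266). With only the CD68 libraries Bcl2l1 and Bcl2a1d did not pass (adjusted p of 0.121 and 0.181).

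A few transcripts known from hepatocytes differed by diet against the hepatocyte list as a whole, which had 1 call of 20. That list's median log2 fold change was 0.33, with 12 of 20 values above 0. Mup7, a major urinary protein with close copies, had 0.0298, 0.0282, 0.0277, 0 and 0.0256 CPM in HFD KC, against 1.74, 3.24 and 2.58 CPM in STD KC (-6.58 ± 0.58, adjusted p = 0.000142), the HFD KC values being about 1 count each or 0. Selenbp2, near-identical to Selenbp1, had 0.298, 0.536, 0.415, 0.251 and 0.128 CPM in HFD KC, against 5.74, 7.35 and 2.2 CPM in STD KC (-3.95 ± 0.47, adjusted p = 0.000284), and Sult2a8, a sulfotransferase, had 0.686, 1.38, 0.332, 0.784 and 0.742 CPM in HFD KC, against 3.93, 6.23 and 6.99 CPM in STD KC (-2.86 ± 0.45, adjusted p = 0.00225). Hsd3b5 had no count in any HFD KC library and a mean of 0.825 CPM in STD KC, at least 9.64-fold lower in HFD KC with 3 counts per library as the floor. Apoa4, an apolipoprotein, moved the other way, with 10.6, 6.23, 4.81, 2.04 and 4.04 CPM in HFD KC, against 0.697, 0.286 and 0.117 CPM in STD KC (3.91 ± 0.65, adjusted p = 0.00305). Within HFD KC it was highest in hfd1 and lowest in hf2, as was the summed level of the hepatocyte markers (814 and 196 CPM). The part of hepatocyte RNA in the Apoa4 rise was not tested. Ctsj, a cathepsin gene, had no count in STD KC and a mean of 1.82 CPM in HFD KC, at least 19.6-fold higher.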
